A study of Homo sapiens with 9 samples.

Results

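The 3 genes for the peroxisome proliferator-activated receptors, PPARA, PPARD and PPARG, and 6 of their classic target genes outside the peroxisome, CPT1A, CPT2, PDK4, ANGPTL4, PLIN2 and ACADM, were followed in SNU5 cells. These 9 genes were taken by symbol from a list of receptors and targets, and each symbol matched 1 of the 60880 Ensembl gene IDs in the count tables. SNU5 is an established human gastric carcinoma cell line. The cells were treated for 24 h with the VEGFR2 antibody ramucirumab linked by polyethylene glycol to gold nanorods (AuNR-PEG-Ab, NR group), with the same antibody linked to gold nanospheres (AuSP-PEG-Ab, SP group), or with the free antibody (Ab group), each at 8 μg/mL of antibody, and poly-A RNA of 3 libraries a group was sequenced. The Ab group is a treated control: untreated cells and cells given gold or polyethylene glycol without antibody were not analysed here, so particle, linker and antibody load in the NR and SP groups cannot be told apart.

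The library totals ranged from 13863155 to 26318227 counts, the lowest being NR replicate 2, so that a level of 3 counts corresponded to 0.114 to 0.216 CPM (counts scaled to library size). The 9 genes had between 272 and 5572 counts in every library, and all 9 passed the filter on low counts in each comparison. Levels are given as CPM scaled by TMM, a factor per library that evens out a few very abundant genes. A gene "passed" when its p from the quasi-likelihood test of edgeR, adjusted by Benjamini-Hochberg across every tested gene, was at most 0.05, and was "called" when it also changed at least 2-fold. The NR and SP comparisons share the same 3 Ab libraries. Ab replicate 1 stood apart from its group: the chi-square of the counts, per gene, was 7.43 and 6.95 against Ab replicates 2 and 3 and 2.17 between those, while within SP it was 3.03 to 5.16 and within NR 1.84 to 3.71. The chi-square was taken on raw counts and grows with depth, which was lowest in NR replicates 2 and 3. Its values are therefore not directly comparable between groups. Without Ab replicate 1, 8 of the 9 genes described here passed in NR and 7 in SP, and 1 and 2 were called. Of all genes tested in that setting, 11137 of 15441 passed in NR and 11153 of 15503 in SP. Called were 3634 and 3718, so the counts of the 9 are close to the background. PDK4 then stood at log2 fold changes of 1.02 and 1.22 and ANGPTL4 at -0.78 and -0.41, the latter not passing in SP. In bulk RNA, a change in the number of cells of a type and a change in RNA per cell cannot be told apart.

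PPARs are nuclear receptors that sense fatty acids. They bind DNA together with a retinoid X receptor (RXR), usually at repeats of the letters AGGTCA, and recruit coactivators. PPARα drives fatty acid oxidation in fasting liver, PPARδ does so in many tissues, and PPARγ is best known for fat storage and adipocyte formation. Carnitine palmitoyltransferases carry long-chain fatty acids into mitochondria, acyl-CoA dehydrogenases start the oxidation spiral, and pyruvate dehydrogenase kinases hold back glucose-derived carbon while fat is burned.

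Of the 9 genes, PDK4 and CPT2 rose most, ACADM and CPT1A rose by less than 2-fold, and PPARG, ANGPTL4 and PLIN2 fell in both gold groups. In NR against Ab, 4 of 9 passed as higher, 3 passed as lower and 2 did not pass. Over all 15009 genes tested in that comparison 72.7% passed, 36.4% as higher and 36.4% as lower, so 7 of 9 is close to the background. The groups did not overlap for 7 of the 9, against 74.7% of all genes. In SP against Ab, 5 of 9 passed as higher, 3 as lower and 1 did not pass, and 9 of 9 had groups that did not overlap, where 73.0% of 15068 genes passed and 75.1% did not overlap. Called at 2-fold were PDK4 in NR against Ab and PDK4 and CPT2 in SP against Ab, beside 22.7% and 23.2% of all genes, or 12.4% and 12.6% counting rises only. The median log2 fold change of the 9 genes was 0.10 in NR and 0.21 in SP, and that of all genes tested -0.0055 and -0.0067. The 6 target genes moved in opposite directions, with 4 higher and 2 lower in each gold group.

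**Figure D1:**
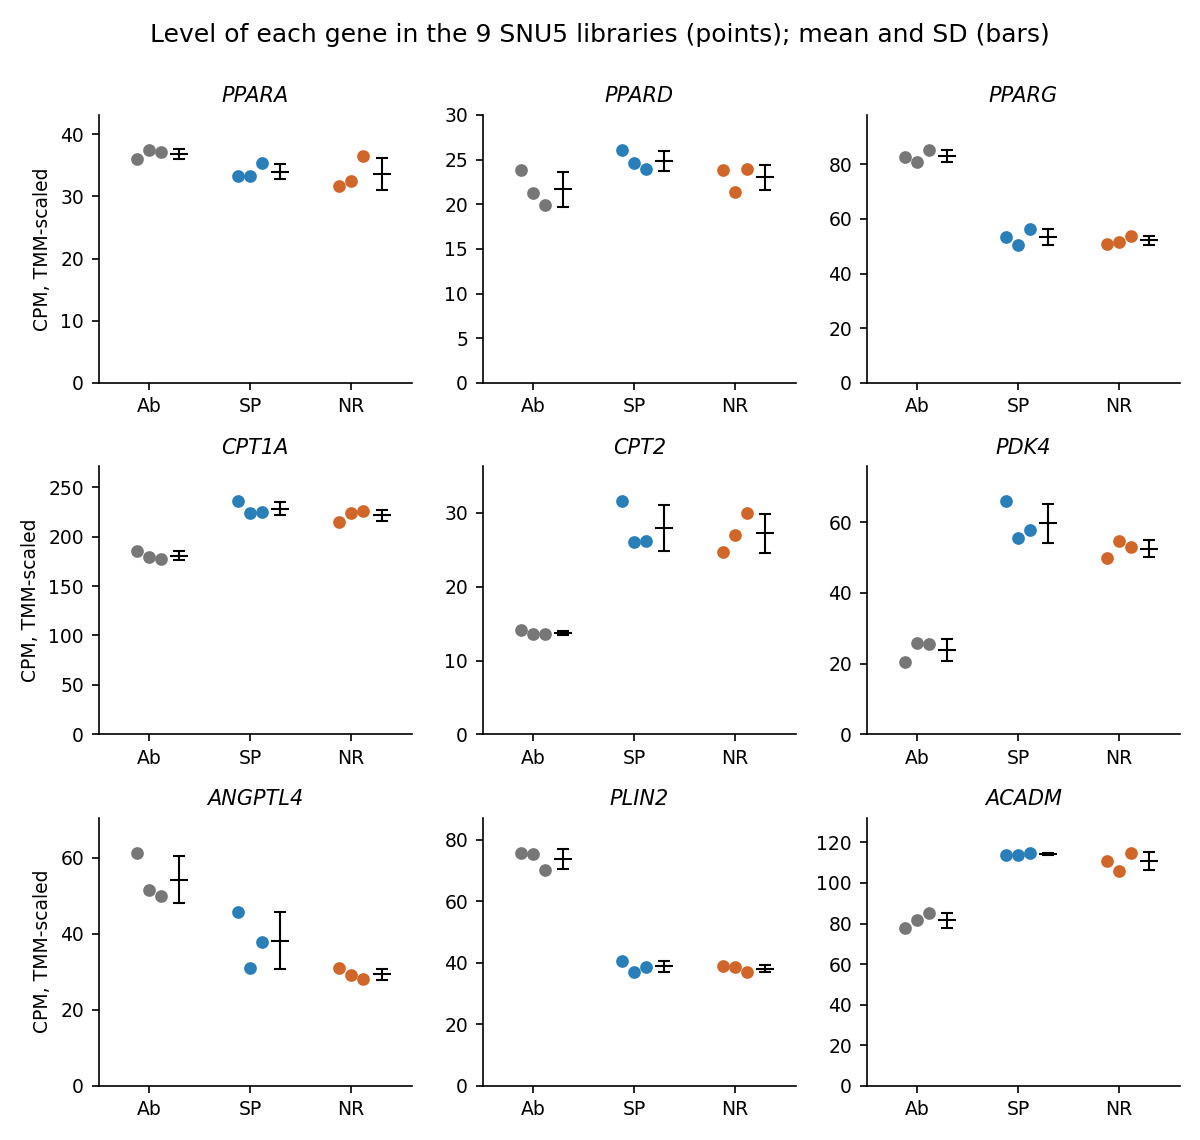
Level of each of the 9 genes (CPM, TMM-scaled, linear axes from 0) in the 3 libraries of the Ab, SP and NR groups (points), with the mean and SD of 3 libraries (bars). CPT2 lay between 13.6 and 14.1 CPM in Ab and between 24.7 and 31.6 in the gold groups, and PLIN2 between 70.1 and 75.8 in Ab and between 36.8 and 40.7 in the gold groups.

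The promoters of the 2 target genes with the largest rises and of the 2 that fell are shown because they are the DNA next to the starts of the genes on which the results turn. The sequences are the 250 bases before the start from RefSeq (GRCh38.p14), read 5′ to 3′ on the gene's strand, with capitals for ACGTG on either strand. These letters are 1 form of the core of the hypoxia response element and lie within the CACGTG E-box. The form GCGTG was not searched, so a window without ACGTG can still hold it.
PDK4, chr7:95596517-95596766, minus strand: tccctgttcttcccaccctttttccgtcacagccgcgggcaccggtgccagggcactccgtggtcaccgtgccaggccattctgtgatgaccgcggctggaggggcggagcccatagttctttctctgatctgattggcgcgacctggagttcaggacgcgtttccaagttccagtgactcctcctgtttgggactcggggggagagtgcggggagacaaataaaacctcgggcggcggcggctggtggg
CPT2, chr1:53196574-53196823, plus strand: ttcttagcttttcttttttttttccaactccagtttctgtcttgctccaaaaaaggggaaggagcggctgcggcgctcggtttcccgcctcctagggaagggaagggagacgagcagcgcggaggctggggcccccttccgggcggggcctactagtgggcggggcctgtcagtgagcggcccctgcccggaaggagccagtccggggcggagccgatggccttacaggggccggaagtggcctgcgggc
PLIN2, chr9:19127493-19127742, minus strand: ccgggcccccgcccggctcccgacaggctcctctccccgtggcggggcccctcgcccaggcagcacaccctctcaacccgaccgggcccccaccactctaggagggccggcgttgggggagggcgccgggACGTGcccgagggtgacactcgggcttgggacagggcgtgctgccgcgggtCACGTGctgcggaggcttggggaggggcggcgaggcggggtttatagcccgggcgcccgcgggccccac
ANGPTL4, chr19:8363905-8364154, plus strand: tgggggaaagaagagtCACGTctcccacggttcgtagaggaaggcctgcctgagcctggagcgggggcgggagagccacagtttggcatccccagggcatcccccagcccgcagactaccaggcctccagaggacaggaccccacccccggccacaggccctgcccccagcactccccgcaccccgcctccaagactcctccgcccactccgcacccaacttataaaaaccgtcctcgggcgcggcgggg
Both fallen targets held ACGTG in this window, and PDK4, CPT2, ACADM and CPT1A did not. Among the receptors, a window of PPARG held ACGTG, while the other PPARG windows and those of PPARA and PPARD did not. PLIN2 held it at 2 places, the nearer of which, 69 bases before the start, is a palindromic CACGTG that counts on both strands, and ANGPTL4 held it on the minus strand. Over all 35116 RefSeq promoter windows, 18.5% held ACGTG in the same 250 bases before the start and 21.4% in the whole window of 300 bases, which runs on past the start, and the motif was chosen after the values of these genes were seen. The letters AGGTCA, 1 arm of the repeat, were in 13.8% of the 300-base windows and, of the 9 genes, only in windows of PPARG. The full repeat, AGGTCA 2 times in a row with any 1 letter between the copies, was in 0.0228% of windows and in none of the 9 genes' windows, which says only that these letters are not there.

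A wider search for the same repeat used 5000 bases on each side of the start, on GRCh37, the build given for the alignment, on both strands and with up to 1 of the 12 fixed letters differing. PDK4 was the only one of the 9 with a match, 4719 bases before its start and outside the gene, read on the plus strand, with capitals for the letters that match:
PDK4 upstream repeat, chr7:95230541-95230553: AaGTCAtAGGTCA
Such a match was found in 9.47% of 18922 genes' windows, and an exact one in 0.719%. The match describes letters and is not evidence of binding, and no binding was measured.

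Among the receptors, PPARG (chr3:12328867-12475855, GRCh37, plus strand) fell and the others changed little. PPARG stood at 82.8, 80.9 and 85.3 CPM in Ab replicates 1 to 3, at 50.7, 51.7 and 53.9 CPM in NR, and at 53.2, 50.5 and 56.4 CPM in SP. Every gold library was below every Ab library, while NR and SP overlapped. The fall was 1.59-fold in the NR group (log2 fold change -0.67, SE 0.06, adjusted p = 1.22e-11, edgeR) and 1.55-fold in SP (log2 fold change -0.63, SE 0.06, adjusted p = 3e-10, edgeR).

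PPARA (chr22:46546424-46639652, plus strand), the receptor of fasting liver, had 36.0, 37.5 and 37.1 CPM in Ab, 31.7, 32.5 and 36.5 CPM in NR and 33.2, 33.3 and 35.4 CPM in SP. NR replicate 3 reached into the Ab range, and the 3 SP libraries lay just under it. The difference did not pass in NR (log2 fold change -0.14, 95% interval -0.28 to 0.01, adjusted p = 0.0798, edgeR) or in SP (log2 fold change -0.11, 95% interval -0.25 to 0.02, adjusted p = 0.13, edgeR). PPARD (chr6:35310335-35395968, plus strand), the widely expressed receptor, had 23.8, 21.3 and 19.9 CPM in Ab, 23.8, 21.4 and 23.9 CPM in NR and 26.1, 24.6 and 23.9 CPM in SP. NR and Ab overlapped, and SP lay above Ab by a margin as small as that between SP replicate 3 and Ab replicate 1. In NR the difference did not pass (log2 fold change 0.10, SE 0.08, adjusted p = 0.292, edgeR). In SP PPARD passed by a small amount (log2 fold change 0.21, SE 0.08, adjusted p = 0.0255, edgeR), but the adjusted p was 0.072 with DESeq2 and 0.102, 0.0585, 0.0784 and 0.156 in edgeR without SP replicate 1, SP replicate 2, Ab replicate 2 or Ab replicate 3.

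Compared per kilobase of merged exons, the receptors changed rank. PPARG made up 47.5% ± 1.75 (SD, n = 3) of the summed level of the 3 receptors in Ab, 36.1% ± 1.04 in NR and 35.4% ± 1.36 in SP. PPARD made up 33.3% ± 2.33 in Ab, 42.9% ± 1.56 in NR and 44.2% ± 1.95 in SP. PPARA stayed between 18.2% and 21.9% in all 9 libraries. Which receptor led in the gold groups depended on the length used: per kilobase of the longest transcript PPARG held 66.2% in Ab, 55.0% in NR and 54.3% in SP, and PPARD 20.7%, 29.2% and 30.2%. The fall of the PPARG share was seen with both lengths.

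**Figure D2:**
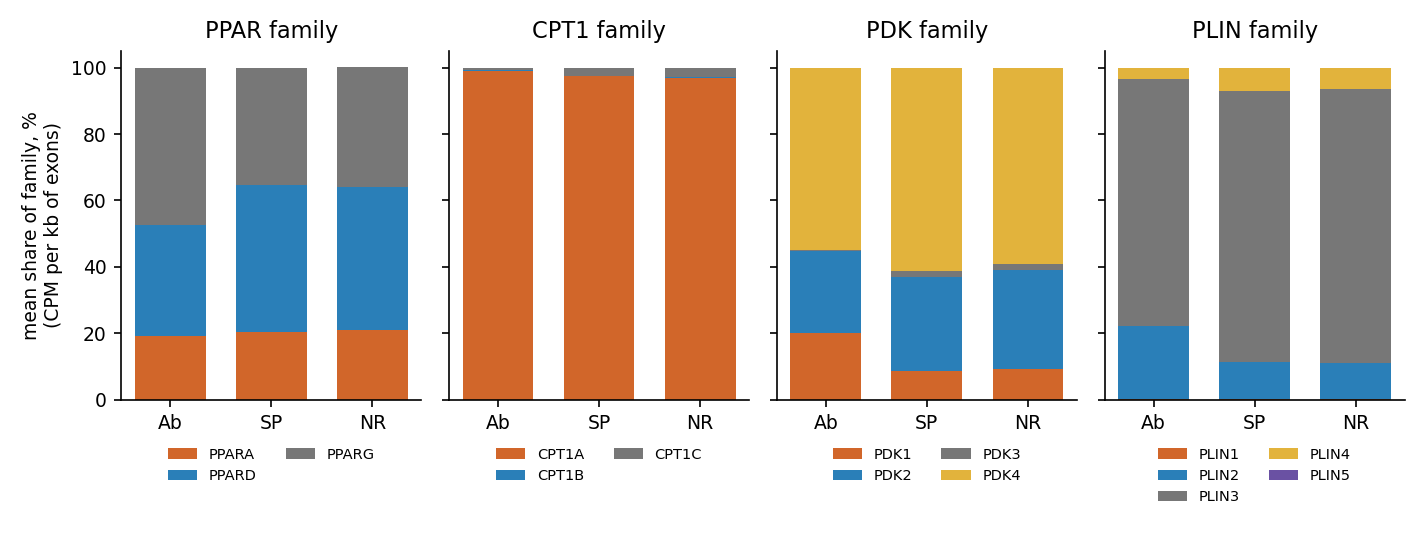
Mean share of each gene in the summed level of its family (percent, CPM per kilobase of merged exons, n = 3 libraries a group) in the Ab, SP and NR groups, for the PPAR, CPT1, PDK and PLIN families. PPARG fell from 47.5% to 36.1% (NR) and 35.4% (SP) of its family, and PLIN2 from 21.9% to 11.1% and 11.4%.

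The partner and coactivator genes mostly fell. Of 16 listed, 14 could be tested, and in NR against Ab 3 were higher, 9 lower and 2 did not pass (median log2 fold change -0.52), while in SP against Ab 2 were higher, 9 lower and 3 did not pass (median -0.43). Over all genes tested, 36.4% passed as higher in each comparison, and 36.4% in NR and 36.6% in SP as lower. These shares are the background for every list counted below. RXRA, an RXR partner, stood at 301 CPM in Ab (SD 8.53), 208 in NR (SD 5.46) and 219 in SP (SD 2.86), with no overlap between Ab and gold libraries (log2 fold changes -0.53 and -0.45, adjusted p = 1.17e-11 and 5.71e-10, edgeR). EP300, a histone acetyltransferase, fell (log2 fold changes -0.89 and -0.71), as did MED1, the Mediator subunit that docks on nuclear receptors (-0.68 and -0.57). PPARGC1B (PGC-1β), a coactivator of mitochondrial genes, went the other way: it had 6.66, 6.17 and 6.73 CPM in Ab, 12.1, 13.4 and 13.4 in NR and 15.2, 13.3 and 11.8 in SP (log2 fold changes 0.99 and 1.06, adjusted p = 1.53e-08 and 8.61e-09, edgeR). PPARGC1A (PGC-1α) did not pass, with 23.3 CPM in Ab, 25.9 in NR and 25.7 in SP. RXRG was at 0 counts in all 9 libraries. RXRB had 1 to 8 counts, but it lies in a stretch of chromosome 6 where all 11 protein-coding genes within 100000 bases had at most 10 counts in every library, including the ribosomal protein gene RPS18 with 1 to 6, so its count cannot be read as low expression.

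For entry of fatty acids into mitochondria, CPT2 rose by about 2-fold and CPT1A by much less. CPT1A (chr11:68522088-68611878, minus strand), the outer-membrane and rate-setting step, had 186, 179 and 177 CPM in Ab, 215, 224 and 226 CPM in NR and 236, 224 and 225 CPM in SP. The gold libraries were all above the Ab libraries. The rise was 1.23-fold in the NR group (log2 fold change 0.30, SE 0.04, adjusted p = 9.73e-07, edgeR) and 1.27-fold in SP (0.34, SE 0.05, adjusted p = 1.82e-07, edgeR). Per length CPT1A made up 99.0% of the 3 CPT1 genes in Ab, 97.0% in NR and 97.5% in SP. The muscle form CPT1B was at 0.312, 0.109 and 0.061 CPM on average in Ab, NR and SP, but 66.4% of its exon bases are shared on the same strand with CHKB-CPT1B, so its count and the share of CPT1A are uncertain. CPT1C, the form best known from brain, rose from 1.22 CPM in Ab to 5.89 in NR and 5.05 in SP (log2 fold changes 2.23 and 2.02, adjusted p = 3.09e-10 and 3.09e-09, edgeR), on 17 to 148 counts a library.

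CPT2 (chr1:53662464-53679869, plus strand), the inner-membrane enzyme that hands the acyl group back to coenzyme A, had 14.1, 13.6 and 13.6 CPM in Ab, 24.7, 27.0 and 30.0 CPM in NR and 31.6, 26.1 and 26.2 CPM in SP. The Ab libraries were nearly equal, and the lowest gold library was well above them. The rise was 1.98-fold in the NR group (log2 fold change 0.98, SE 0.09, adjusted p = 5.92e-11, edgeR) and 2.04-fold in SP (1.03, SE 0.09, adjusted p = 4.01e-11, edgeR). A value this near 2-fold moved across the limit: CPT2 was also called in NR without NR replicate 1, and was not called in SP without SP replicate 1, its highest library. Of its annotated exon bases, 12.4% lie in CZIB and a further gene on the other strand, and whether reads were counted by strand is not given in the sources used here.

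ACADM (chr1:76190116-76253260, plus strand), the medium-chain acyl-CoA dehydrogenase, had 77.8, 81.9 and 85.0 CPM in Ab, 111, 106 and 115 CPM in NR and 114, 114 and 115 CPM in SP. The gold libraries lay in a narrow band above Ab. The rise was 1.36-fold in the NR group (log2 fold change 0.44, SE 0.05, adjusted p = 1.55e-08, edgeR) and 1.41-fold in SP (0.50, SE 0.05, adjusted p = 3.22e-09, edgeR), and 11.0% of the exon bases of ACADM are shared with RABGGTB and DLSTP1. The short-chain enzyme ACADS rose more, from 10.6 CPM in Ab to 26.3 in NR and 27.1 in SP (log2 fold changes 1.32 and 1.37, adjusted p = 1.26e-13 and 1.03e-13, edgeR). The very-long-chain enzyme ACADVL changed least, from 332 to 354 and 370 CPM (log2 fold changes 0.10 and 0.16, adjusted p = 0.0485 and 0.00307, edgeR), and was the most abundant of them per length, with 68.9, 73.4 and 76.8 CPM per kilobase of exons in Ab, NR and SP. ACADL was at or near 0.

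Other genes of mitochondrial β-oxidation mostly rose together with them. Apart from CPT1A, CPT2 and ACADM, 23 were listed and 21 tested: 18 were higher, 2 lower and 1 did not pass in each gold group against Ab, with median log2 fold changes of 1.03 in NR and 0.96 in SP. Among all genes tested, 36.4% were higher in each comparison, and 36.4% (NR) and 36.6% (SP) lower. DECR1, which reduces unsaturated acyl chains, rose from 18.3 CPM in Ab to 47.4 in NR and 46.2 in SP (log2 fold changes 1.37 and 1.34). ETFB, which takes up electrons from the dehydrogenases, rose by 1.37 and 1.27 on the log2 scale, whereas its partner ETFA rose by 0.11 in each. The 2 that fell were ECI1, an enoyl-CoA isomerase, and SLC22A5, the carnitine importer of the cell surface, by 0.15 and 0.18 on the log2 scale in NR and by 0.28 and 0.15 in SP.

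PDK4 (chr7:95212811-95225828, minus strand), the kinase that switches off pyruvate dehydrogenase in fasting, rose most of the 9 genes. It had 20.3, 25.8 and 25.5 CPM in Ab, 49.8, 54.5 and 52.9 CPM in NR and 65.9, 55.4 and 57.7 CPM in SP. The 3 groups did not overlap, with Ab lowest, NR in the middle and SP highest. The rise was 2.19-fold in the NR group (log2 fold change 1.13, SE 0.08, adjusted p = 6.58e-13, edgeR) and 2.50-fold in SP (1.32, SE 0.09, adjusted p = 1.95e-11, edgeR).

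Its relatives PDK2 and PDK3 rose as well. PDK2, the broadly expressed form, went from 12.8 CPM in Ab to 31.8 in NR and 33.2 in SP (log2 fold changes 1.32 and 1.38, adjusted p = 1.55e-13 and 4.09e-14, edgeR). Of the exon bases of PDK2, 38.6% are shared with SAMD14 on the other strand, so its count and the family shares are uncertain. PDK3 had 18, 16 and 13 counts in Ab and 76 to 175 in the gold libraries (log2 fold changes 3.19 and 3.21, adjusted p = 3.19e-13 and 1.18e-13, edgeR). PDK1, also known as a hypoxia target, did not pass (28.2 CPM in Ab, 27.1 in NR, 27.2 in SP). Per length PDK4 was the leading form in each group, with 54.9% ± 4.44 of the family in Ab, 59.1% ± 2.39 in NR and 61.3% ± 1.67 in SP (SD, n = 3), while PDK1 went from 19.5% to 20.6% in Ab to 9.33% and 8.56% on average in NR and SP. Of 13 other genes around pyruvate dehydrogenase, all tested, 10 were higher, 1 lower and 2 did not pass in each gold group (median log2 fold changes 0.69 and 0.65). The background was 36.4% of all genes higher in each, and 36.4% (NR) and 36.6% (SP) lower. Of the complex that the kinases act on, PDHA1 was higher by 0.69 on the log2 scale in each gold group and PDHB by 0.98 in NR and 1.02 in SP, whereas PDHX did not pass (log2 fold change 0.03 in each), and the gene that fell was the phosphatase PDP1 (log2 fold changes -0.96 and -0.80).

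ANGPTL4 (chr19:8428173-8439254, plus strand), a secreted inhibitor of lipoprotein lipase, fell in NR and, less evenly, in SP. It had 61.4, 51.5 and 50.0 CPM in Ab, 30.9, 29.1 and 28.1 CPM in NR and 45.8, 30.9 and 37.9 CPM in SP. The NR libraries were close together and below all Ab libraries, whereas the SP libraries were spread, with SP replicate 2 at the NR level and SP replicate 1 nearest to Ab. The fall was 1.83-fold in the NR group (log2 fold change -0.88, SE 0.07, adjusted p = 4.68e-11, edgeR) and 1.41-fold in SP (-0.50, SE 0.17, adjusted p = 0.0381, edgeR). In SP it did not pass without SP replicate 3, Ab replicate 1 or Ab replicate 2 (adjusted p = 0.0813, 0.092 and 0.0803, edgeR), and its log2 fold change ranged from -0.66 to -0.37 over the settings tried.

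Around lipoprotein lipase, 5 of 16 listed genes could be tested, and in each gold group 3 were higher and 2 lower. LPL itself was rare, with 4, 14 and 3 counts in Ab, 42, 14 and 19 in NR and 22, 31 and 13 in SP. LIPA, the lysosomal acid lipase, was abundant and rose from 48.8 CPM in Ab to 127 in NR and 117 in SP (log2 fold changes 1.38 and 1.27, adjusted p = 2.01e-19 and 1.88e-17, edgeR). VLDLR, a lipoprotein receptor, fell from 82, 121 and 98 counts in Ab to 21, 23 and 6 in NR and 15, 22 and 6 in SP, and APOE, its ligand, from 33, 33 and 38 counts to 11, 1 and 1 in NR and 10, 11 and 16 in SP. ANGPTL8, a relative of ANGPTL4, was too low to test.

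PLIN2 (chr9:19108373-19149288, minus strand), the coat protein of lipid droplets in most cells, had 75.8, 75.2 and 70.1 CPM in Ab, 38.9, 38.6 and 36.8 CPM in NR and 40.7, 37.0 and 38.7 CPM in SP. The gold libraries formed 1 tight cluster far below Ab. The fall was 1.93-fold in the NR group (log2 fold change -0.95, SE 0.06, adjusted p = 3.7e-14, edgeR) and 1.89-fold in SP (-0.92, SE 0.06, adjusted p = 2.82e-13, edgeR), short of the 2-fold limit in each. PLIN3, the cytosolic coat protein, was the most abundant of the family per length and went from 74.5% to 82.5% of it in NR and 81.5% in SP. PLIN4 rose from 14.9 CPM in Ab to 28.0 in NR and 31.0 in SP (log2 fold changes 0.91 and 1.07, adjusted p = 1.37e-10 and 1.4e-11, edgeR). PLIN1 and PLIN5 were too low to test.

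Of 20 other lipid droplet and triglyceride genes, 14 were tested, with 8 higher, 4 lower and 2 not passing in NR and 8 higher, 3 lower and 3 not passing in SP (median log2 fold change 0.19 in each). Beside them, 36.4% of all genes were higher in each comparison, and 36.4% (NR) and 36.6% (SP) lower. DGAT2, which makes triglyceride, rose from 4.53 CPM in Ab to 18.9 in NR and 19.1 in SP (log2 fold changes 2.09 and 2.1, adjusted p = 1.08e-14 and 1.13e-14, edgeR). LIPE, the hormone-sensitive lipase, rose from 6.34 to 19.9 and 17.5 CPM (1.64 and 1.46). ABHD5, the activator of the first triglyceride lipase, fell from 102 to 50.6 and 49.9 CPM (-1.01 and -1.03).

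**Figure D3:**
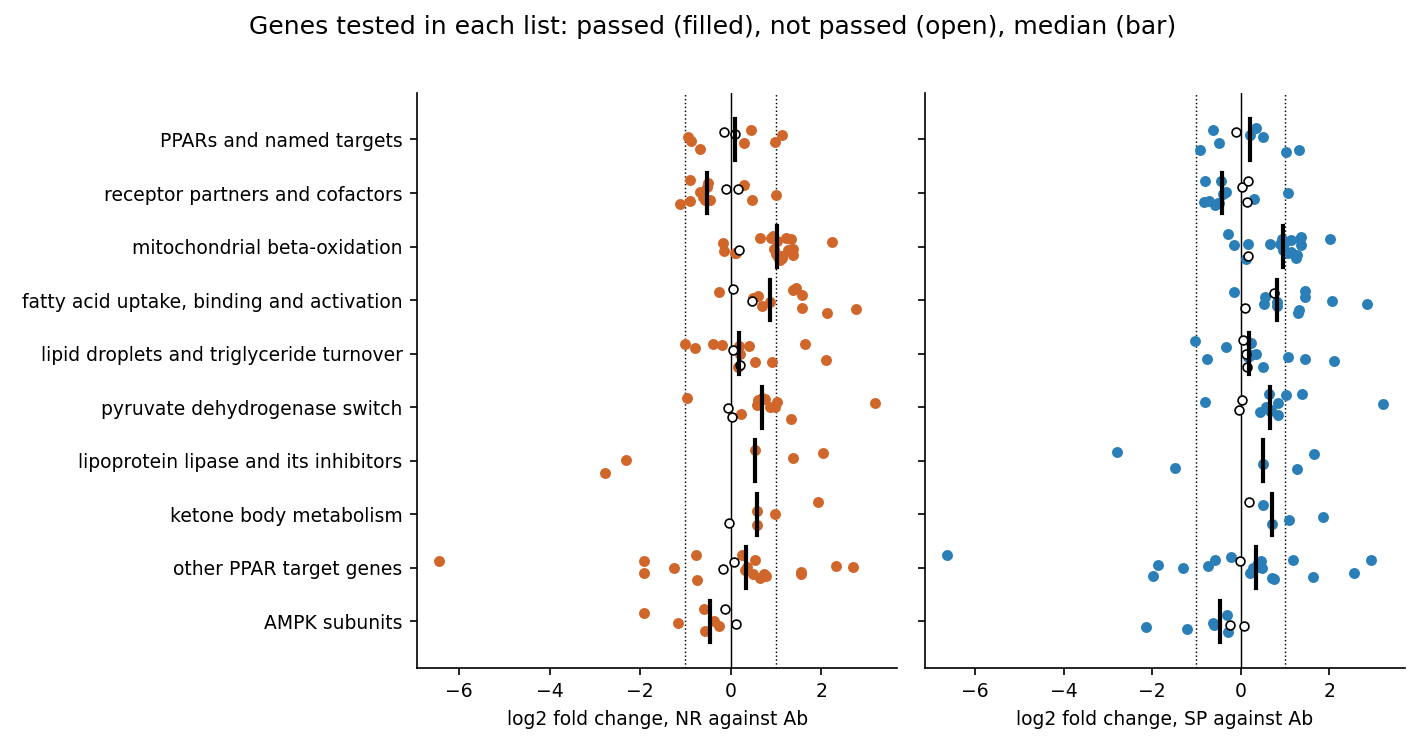
Log2 fold change of every tested gene of each list in NR against Ab (left) and SP against Ab (right); filled points passed at an adjusted p of at most 0.05 (edgeR), open points did not, thick bars are list medians and dotted lines mark 2-fold. β-oxidation genes had medians of 1.03 and 0.96, receptor partners and cofactors -0.52 and -0.43, and both comparisons use the same Ab libraries.

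Upstream of oxidation, 21 genes for uptake, binding and activation of fatty acids were listed and 13 tested, with 10 higher, 1 lower and 2 not passing in each gold group (median log2 fold changes 0.86 and 0.82). All genes tested gave 36.4% higher in each comparison, and 36.4% (NR) and 36.6% (SP) lower. FABP3, the heart-type binding protein and a known PPAR target, rose from 9.62, 8.93 and 8.96 CPM in Ab to 65.1, 60.4 and 60.5 in NR and 67.5, 62.1 and 67.4 in SP, or 6.80-fold and 7.21-fold (adjusted p = 1.81e-22 and 3.55e-22, edgeR). SLC27A2, a very-long-chain acyl-CoA synthetase, rose from 36.4 to 108 and 98.2 CPM, DBI, the acyl-CoA binding protein, from 81.6 to 242 and 202 CPM, and ACSL5, a long-chain acyl-CoA synthetase, from 0.924 to 3.97 and 3.81 CPM. CD36, the classic uptake receptor, and FABP1 were too low to test against Ab. For ketone bodies 6 genes were listed and 5 tested, with 4 higher and none lower in each, among them BDH1, which interconverts acetoacetate and hydroxybutyrate (4.57 CPM in Ab, 17.4 in NR, 16.4 in SP), and OXCT1, which activates acetoacetate (303, 452 and 430 CPM).

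Among 25 further PPAR target genes, 20 were tested. In NR against Ab 12 were higher, 6 lower and 2 did not pass (median log2 fold change 0.34), and in SP against Ab 12 were higher, 7 lower and 1 did not pass (median 0.33). For this list and the AMPK list, the background was 36.4% of all genes higher in each comparison, and 36.4% (NR) and 36.6% (SP) lower. UCP2, a mitochondrial carrier, rose from 15.6 CPM in Ab to 77.9 in NR and 91.3 in SP (log2 fold changes 2.33 and 2.56, adjusted p = 5.72e-22 and 2.15e-21, edgeR). CREB3L3, a liver and gut transcription factor that works with PPARα, rose from 12, 12 and 4 counts in Ab to 33 to 88 in NR and 55 to 92 in SP. FGF21, the fasting hormone, went the opposite way, with 37, 49 and 51 counts in Ab, 1, 0 and 0 in NR and 0, 1 and 0 in SP, at least 12.1-fold and 15.2-fold lower when the gold libraries are set at 3 counts each. PCK2, the mitochondrial form of phosphoenolpyruvate carboxykinase and also a target of ATF4, fell from 200 CPM to 52.9 and 54.6 (log2 fold changes -1.91 and -1.86, adjusted p = 1.99e-22 and 2.27e-21, edgeR). The AMPK list, the energy-sensing kinase and its upstream kinases, had none higher, 6 lower and 2 not passing of 8 tested in each comparison, with STK11 (LKB1) at 10.4 CPM in Ab and 2.74 and 2.35 in NR and SP, and the γ subunit gene PRKAG2 at 27.4, 12.3 and 11.7 CPM.

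Between the particle shapes, none of the 9 genes passed in NR against SP (edgeR), where 0.443% of 14903 genes passed and 0.0201% were called. At an unadjusted p under 0.05 there were 2 of them, PDK4 and ANGPTL4, against 12.9% of all genes. DESeq2 gave an adjusted p here for only 2 of the 9, CPT1A and ACADM (0.655 and 0.675), so that its result for the other 7 is not known. PDK4 was the 1 gene of 9 whose NR and SP libraries did not overlap, against 17.8% of all genes, and it was lower in NR, where 8.84% of all genes tested were both lower in NR and without overlap (log2 fold change -0.19, 95% interval -0.32 to -0.07, adjusted p = 0.153, edgeR). ANGPTL4 had the widest interval (log2 fold change -0.37, 95% interval -0.71 to -0.04, adjusted p = 0.331, edgeR), and passed as lower in NR in 3 other settings, without a filter on low counts (adjusted p = 6.06e-05, edgeR), with a replicate block (0.0441) and without SP replicate 2 (0.00532). For the other 7 genes the log2 differences were between -0.11 and -0.02, and the intervals reached no lower than -0.26 and no higher than 0.12, so that larger differences between rods and spheres lay outside them.

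**Figure D4:**
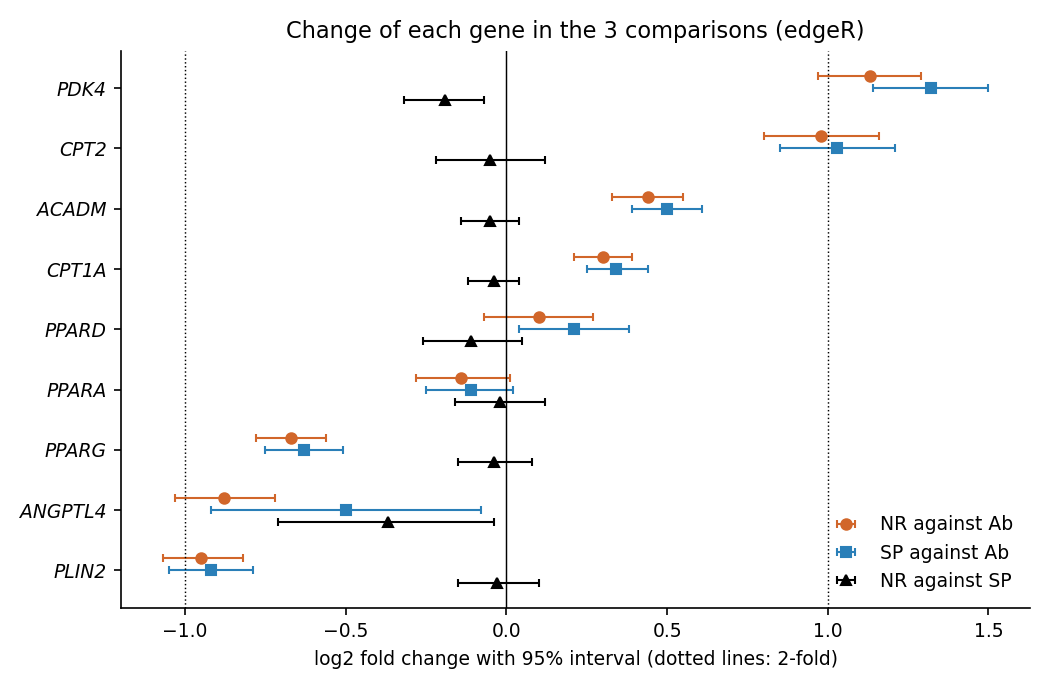
Log2 fold change (points) with 95% interval (bars, edgeR) of the 9 genes in NR against Ab (circles), SP against Ab (squares) and NR against SP (triangles); dotted lines mark 2-fold. PDK4 lies at 1.13 and 1.32 against Ab and at -0.19 between the shapes, and PLIN2 at -0.95, -0.92 and -0.03.

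Across the 9 genes the order of levels shifted. Per kilobase of merged exons in Ab, CPT1A was highest (27.5 CPM per kilobase), followed by ANGPTL4 (21.9), PLIN2 (14.7), PPARG (6.93), ACADM (5.92), PDK4 (5.25), PPARD (4.86), PPARA (2.79) and CPT2 (1.36). PDK4 (SD 0.674) lay within 1 SD of PPARD and about 1 SD below ACADM, so the order of these genes is not resolved. In NR, PDK4 (11.5) stood beside ANGPTL4 (11.9) and ahead of ACADM (8.03) and PLIN2 (7.61), and CPT2 (2.70) beside PPARA (2.54), with PDK4 within 1 SD of ANGPTL4 and CPT2 within 1 SD of PPARA. With the longest transcript as length PLIN2 led in Ab (38.8) ahead of CPT1A (34.5), so only the shifts within a gene are independent of the length chosen.

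The genes whose profile over the 9 libraries was most like that of a member were found by the root mean square difference of centred log2(CPM + 1) among 10707 genes with a mean of at least 5 CPM. For PDK4 they were ABCG2, a drug efflux pump (0.05), FKBP5, a glucocorticoid-induced chaperone (0.094), and ANLN, a cytokinesis protein (0.095). For CPT2 they were TMEM94 (0.056), FARP1 (0.057) and C1orf198 (0.063). For PLIN2 they were PDRG1 (0.03), FADS3 (0.032) and SLC66A1 (0.039).

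Markers of the labelled cell type and of others moved with the gold groups as well. The 8 epithelial markers summed to 3010 to 3330 CPM in Ab and 3260 to 3770 in the gold libraries. KRT7 had the most CPM of them in Ab and fell (2200 in Ab, 1010 in NR, 1150 in SP), and KRT8 had the most in the gold groups and rose (658, 1880 and 1960). CDH1 had 5 to 9 counts in Ab and 79 to 159 in the gold libraries, while KRT19 had at most 3 counts in every library. KDR, the gene for VEGFR2, the target of the antibody, also had at most 3. From flow cytometry of antibody uptake, the paper proposes that SNU5 could be high in VEGFR2. Antibody signal and RNA counts are unlike measures, and the difference was not tested. The summed fibroblast markers, 6 genes led by COL1A1 in Ab and SP and by LUM in NR, were at 42.4, 40.0 and 17.5 CPM in Ab and 103 to 115 CPM in the gold libraries, and 3 of them passed as higher in each gold group: LUM (0.941 CPM in Ab, 37.2 in NR, 38.3 in SP), DCN (0.537, 19.8 and 21.0) and PDGFRB (0.443, 11.1 and 12.2), with THY1 at or under 3 counts. COL1A2 was uneven, with 198, 278 and 33 counts in Ab, 37, 0 and 0 counts in NR and 49, 49 and 43 counts in SP. The summed endothelial markers, 5 genes led by CDH5, were at 3.79 to 5.23 CPM in Ab and 20.8 to 24.1 in the gold libraries, VWF having 0, 0 and 1 counts in Ab and 21 to 34 in gold and TEK at most 3. The summed leukocyte markers, 10 genes led by CSF1R in the gold groups, were at 1.36 to 2.24 and 5.57 to 8.23 CPM, CSF1R itself having 3, 8 and 3 counts in Ab and 56 to 124 in gold, CD14 going the other way with 21, 13 and 8 counts in Ab and 1 to 7 in gold (log2 fold change -1.52, adjusted p = 0.0201 in NR, edgeR, and not tested in SP), and PTPRC, CD68, LST1, CD3E, MS4A1 and NKG7 at most 3. Of the CD68 exon bases, 85.6% are shared with other genes, 81.6% on the same strand, so its count is uncertain. LST1 lies on chromosome 6, as RXRB does, and the counts of its neighbours were not examined. For the cell types in which PPARs are best known, the adipocyte genes ADIPOQ, LEP and CIDEC and the hepatocyte genes ALB, SERPINA1, TTR and CYP3A4 had at most 3 counts in every library, ADIPOR2 led the 7 adipocyte markers (118 to 123 CPM summed in Ab, 124 to 144 in gold) and HNF4A led the 6 hepatocyte markers (2.03 to 2.96 and 7.38 to 9.27). Of the other adipocyte markers, FABP4, a fatty acid binding protein and classic PPARγ target, had 0 counts in each Ab library, 15, 12 and 4 in NR and 22, 13 and 9 in SP, at least 4.06-fold and 4.81-fold higher when each Ab library is set at 3 counts, and was too low to test against Ab, as was PLIN1, with 13, 9 and 10 counts in Ab and 0 to 7 in gold, and LIPE rose as given above. Mitochondrial transcripts took 3.41% to 3.71% of counts in Ab and 4.36% to 4.66% in the gold libraries. The part of these markers and shares in the changes of the 9 genes was not tested.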

How the data were processed

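Poly-A RNA from 9 SNU5 libraries was sequenced in pairs. Per the paper's methods, the authors removed reads with adapters, poly-N or low quality, aligned with HISAT2 2.1.0 (GRCh37 in the reporting summary, while GEO's build field lists a mouse build although the IDs are human) and counted reads per gene, the strand setting not being stated. The authors deposited raw counts per Ensembl gene ID, unnormalized, 1 table a group, and their notes name DESeq2 1.16.1. Of 60880 IDs, 59858 matched the annotation after version suffixes were removed. 0 columns were left out as unmapped.

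Each pair of groups was fitted with edgeR 4.0.16 (R 4.3.3): filterByExpr with a minimum count of 10 and a total of 15, TMM, robust quasi-likelihood test, Benjamini-Hochberg adjustment over all genes. Settings tried were DESeq2 1.42.0, other size factors and filters, a fold minimum of 1.5, 1 fit of all libraries, a replicate block and each library left out. The code was tested on simulated data. The paper calls the libraries biological replicates, but the labels do not say whether they are separate cultures, and p-values measure only the spread between these libraries. Counting error alone sets the 3-count limit.

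Members, gene lists and motifs were chosen with earlier results of these data known. Besides the 9 members and their family relatives, genes named from a list are up to 4 called in both gold groups with the largest change in NR and 20 or more counts on average where it is higher, or, with under 2 called, the 2 with the smallest adjusted p in NR. The RXR genes, partners of the receptors, were counted with the family relatives. The most abundant markers of a list and those with at most 3 counts in every library were also named. Names outside this rule (PPARGC1A, PPARGC1B, ETFA, ECI1, SLC22A5, PDHA1, PDHB, PDP1, PDHX, PGK1, LDHA, ENO1, SLC2A1, ACAT1, RPS18, CD36, FABP1, ANGPTL8, KRT7, CD14, COL1A2, FABP4) were added after their values were seen. Some listed genes are counted but not reported here by name.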

Additional observations from a re-analysis of the deposited data

Results flagged for a closer look

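ACAT1, the thiolase that ends mitochondrial β-oxidation and makes acetoacetyl-CoA, differed between the particle shapes in the direct comparison. It had 119, 126 and 119 CPM in NR, 99.5, 103 and 112 CPM in SP and 58.4, 55.7 and 56.9 CPM in Ab, so that the 3 groups did not overlap. The log2 difference of NR against SP was 0.21 (adjusted p = 0.0481, edgeR's quasi-likelihood test), higher in 3 of 3 NR libraries, and it was the 1 gene of the 21 tested β-oxidation genes to pass there, where 0.443% of all genes passed. It also passed with DESeq2, but in edgeR it did not pass with a replicate block (adjusted p = 0.0791), with all libraries in 1 fit (0.0716), or without NR replicate 1, 2 or 3 (0.0514, 0.213 and 0.102) or SP replicate 1 or 2 (adjusted p = 0.199 and 0.152).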

How the results depend on the processing

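Among the 9 genes, PDK4, CPT2, ACADM, CPT1A, PPARG, ANGPTL4 and PLIN2 kept their direction against Ab in every setting run. PDK4 ranged from 1.02 to 1.19 in NR and from 1.22 to 1.38 in SP on the log2 scale. With a fold minimum of 1.5, 5 of the 9 were called in NR and 4 in SP, and 6348 and 6385 of all genes. Leaving out 1 library gave 1 to 2 of the 9 called in NR and 1 to 2 in SP. Of all genes, 3511 to 3634 were then called in NR, with 15232 to 15441 tested. In SP 3620 to 3718 were called, with 15439 to 15536 tested. PPARA passed as lower in NR with at least 10 counts in every library (adjusted p = 0.0438), without NR replicate 3 (0.0226) and without Ab replicate 1 (0.043), all with edgeR. In NR against SP, 3 of all genes were called, but 5 with a fold minimum of 1.5, 0 with DESeq2 (which gave an adjusted p for 3909 genes, 2 of the 9 among them, and passed 143), 27 without the low-count filter and 0 to 28 with 1 library left out, the highest without NR replicate 1. Of the 9, 1 passed there without the filter, 1 with the replicate block and 0 to 1 with 1 library left out, ANGPTL4 each time. Of all genes, 328 of 30650 passed there without the filter and 51 of 14903 with the replicate block. With 1 library left out, 10 to 188 passed, with 15145 to 15306 tested. Differences near 0 changed sign: in NR against SP, leaving out 1 library gave -0.085 to 0.024 for PPARA, -0.075 to 0.0026 for PPARG, -0.12 to 0.049 for CPT2 and -0.058 to 0.011 for PLIN2, and in SP against Ab -0.047 to 0.023 for ADIPOR2. The cause was not tested. Libraries with the same number did not deviate together (r of deviations -0.13 to 0.057), so the numbers do not pair them, and the replicate block called 3414 genes in NR against Ab, 3493 in SP against Ab and 4 in NR against SP. The lowest depth, in NR replicate 2, limits genes with few counts such as LPL, APOE and FGF21.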

Other observations

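Genes of neighbouring regulators were read beside the PPAR targets, because PDK4, ANGPTL4 and PLIN2 are also known to respond to hypoxia or glucocorticoids. Of 14 hypoxia targets, 12 were tested, and 4 were higher, 7 lower and 1 did not pass in each gold group (median log2 fold changes -0.24 and -0.23), where 36.4% of all genes passed as higher in each, and 36.4% in NR and 36.6% in SP as lower. VEGFA, the angiogenic growth factor, fell from 603 CPM in Ab to 102 in NR and 97.5 in SP (log2 fold changes -2.56 and -2.62), and ADM, a vasodilator peptide, from 76.2 to 30.3 and 32.5 CPM (-1.33 and -1.22), while the glycolytic genes PGK1 (705, 1330 and 1320 CPM) and LDHA (1030, 1870 and 1830 CPM) rose. Glycolytic genes did not move as 1 set, since ENO1 passed as lower in each gold group. It went from 661 CPM per kilobase of exons in Ab to 588 in NR and 582 in SP. SLC2A1, a glucose transporter, also passed as lower in each.

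Of 8 glucocorticoid receptor targets, 7 were tested, with 3 higher, 3 lower and 1 not passing in NR and 2 higher, 4 lower and 1 not passing in SP (median log2 fold changes -0.31 and -0.30). Counts this small are not far from the background of 36.4% higher in each, and 36.4% (NR) and 36.6% (SP) lower. FKBP5, 1 of the 3 genes most like PDK4 over the libraries, rose from 20.2 CPM in Ab to 45.4 in NR and 48.4 in SP (log2 fold changes 1.17 and 1.27), and DUSP1, a MAP kinase phosphatase, fell from 713 to 412 and 437 CPM (-0.79 and -0.70).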
